A study of Homo sapiens with 4 samples.

Results

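The 7 genes described here encode the transcription factors FOXM1, MYBL2 (B-MYB) and MYBL1 (A-MYB) and the MuvB core subunits LIN9, LIN37, LIN52 and LIN54. They were chosen by name, as regulators of late cell-cycle transcription, and all 7 were found among the 27940 gene symbols of the tables, each on a single row. RNA-seq libraries of U87, an established human glioma line, made up 2 groups of 2. In the shPTPRN3 group the cells had been infected with a lentivirus carrying a single short hairpin RNA against PTPRN, which encodes a receptor-type tyrosine phosphatase family member of secretory vesicle membranes. In the shNC group the lentivirus came from the empty FUGW-H1 vector, per the labels' protocol, so this control carried no hairpin, and the series' design text names it H1-RFP (WT) instead. Neither the labels nor the design text say that the libraries of a group came from separate cultures. A p-value here thus measures spread between libraries, which may be only technical, and cannot be read as spread between cultures. In limma most of that spread is borrowed across all genes (4.94 prior degrees of freedom against 2 residual). Only 1 hairpin and 1 cell line were used, and the title of the series concerns growth of the line after PTPRN knockdown.

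MuvB is a small protein assembly that changes partners through the cell cycle. In resting and early G1 cells it joins E2F4, a DP protein and the pocket protein p130 or p107 to form DREAM, which holds cell-cycle genes off. As cells proceed, the pocket protein and E2F leave, B-MYB takes their place on the same core, and FOXM1 is then recruited to the late promoters, where the genes of G2 and mitosis are switched on. LIN54 is the subunit that touches DNA, at a short element called the CHR, and LIN52 carries the site whose phosphorylation by DYRK1A favours the DREAM form. FOXM1 and MYBL2 are themselves transcribed only in cycling cells, whereas the MuvB core is thought to be present throughout the cycle.

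Promoter windows were searched for the letters of this element. In the RefSeq table (GRCh38.p14; 250 bases before to 50 after the transcription start) 5 of the 7 genes matched, and FOXM1 and MYBL1 did not. Capitals mark the CHR (TTTGAA or TTCGAA), the CCAAT box bound by NF-Y, and an E2F motif (TTTCCCGC or TTTGGCGC), each searched on both strands, where they occur. The first window is that of the member MYBL2 (chr20:43666864-43667163, plus strand), and the next are those of the first 2 genes of the late target list with a CHR, the cyclin gene CCNB2 (chr15:59104896-59105195, plus strand) and the kinase gene CDK1 (chr10:60778081-60778380, plus strand).
MYBL2: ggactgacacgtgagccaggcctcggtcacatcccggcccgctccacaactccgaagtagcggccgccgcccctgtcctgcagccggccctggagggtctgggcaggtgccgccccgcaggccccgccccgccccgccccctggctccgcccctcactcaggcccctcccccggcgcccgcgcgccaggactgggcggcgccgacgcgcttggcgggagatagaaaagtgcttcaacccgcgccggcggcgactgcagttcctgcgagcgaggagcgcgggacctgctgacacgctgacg
CCNB2: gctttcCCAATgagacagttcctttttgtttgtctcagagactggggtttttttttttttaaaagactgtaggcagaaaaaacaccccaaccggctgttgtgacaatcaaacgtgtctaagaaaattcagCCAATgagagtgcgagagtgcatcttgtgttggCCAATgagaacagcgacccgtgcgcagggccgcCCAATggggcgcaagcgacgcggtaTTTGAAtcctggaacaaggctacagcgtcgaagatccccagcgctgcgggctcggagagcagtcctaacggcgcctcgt
CDK1: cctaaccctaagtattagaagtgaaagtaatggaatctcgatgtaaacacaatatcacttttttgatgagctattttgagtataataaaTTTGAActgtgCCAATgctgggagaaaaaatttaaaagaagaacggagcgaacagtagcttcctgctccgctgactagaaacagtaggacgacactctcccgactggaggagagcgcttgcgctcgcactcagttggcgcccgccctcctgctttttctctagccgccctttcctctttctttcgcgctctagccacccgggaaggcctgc
The MYBL2 window held none of these letters, which says nothing of other forms of the elements. The CCNB2 window had a CHR whose first base was at position -29 from the transcription start, downstream of 4 CCAAT boxes. In CDK1 the letters TTTGAA lay at -161, upstream of 1 CCAAT box at -150, unlike the order in CCNB2. CHR letters occur in 16.4% of all windows, so a match alone does not show a working element. Among the other members, LIN54 had a CHR at -100, LIN52 an E2F motif at -25 and a CCAAT box at -246, and LIN37 a CCAAT box at -87, while LIN9 had none of the 3.

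Markers chosen here for a glial and mesenchymal line were expressed only in part. PTPRN had 5.22 and 3.42 FPKM (fragments scaled to transcript length and library size) in the shPTPRN3 libraries, against 28.6 and 19.3 FPKM in the shNC libraries, and 18.1% of its scaled control level was left. Of 8 glial and mesenchymal markers, VIM (1124 to 2177 FPKM), CD44 (87.8 to 103) and CHI3L1 (291 to 699) were well expressed in every library, NES lay between 0.917 and 3.91 FPKM, S100B, SOX2 and OLIG2 were under 1 FPKM, and GFAP was listed at 0 throughout. The summed level of the list was 2790 and 1529 FPKM in shPTPRN3 and 2657 and 2038 FPKM in shNC. Of 8 markers of other cell types, 7 stayed under 1 FPKM in each library, and CDH1 was listed at 0 in shNC replicate 2. The lysosomal gene CD68, at 457 and 307 FPKM in shPTPRN3 and 234 and 247 FPKM in shNC, accounted for nearly all of that list's sum of 458 and 309 FPKM in shPTPRN3 and 236 and 248.9 FPKM in shNC, and its part in the results below was not tested. The tables hold no counts; interval widths of single-exon genes put depth at about 29 and 13.7 M fragments in shPTPRN3 and 19.5 and 13.1 M in shNC.

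FOXM1, a forkhead factor that activates genes of G2 and mitosis, was the member with the highest level in the control cells and had the largest difference. It had 9.12 and 3.60 FPKM in the shPTPRN3 libraries, against 39.3 and 40.3 FPKM in the shNC libraries. The shNC values lay close together, both shPTPRN3 values were far below them, and the shPTPRN3 libraries differed from each other 2.27-fold after scaling. The deposited confidence intervals, 8.49 to 9.75 and 3.06 to 4.14 FPKM in shPTPRN3 and 37.7 to 41.3 and 38.1 to 42.6 FPKM in shNC, did not overlap between groups. Read as a counting error, they correspond to about 841 and 177 fragments in shPTPRN3 and 1969 and 1294 in shNC, so counting error was small beside the spread between the shPTPRN3 libraries. On the scaled values (FPKM divided by a factor per library), shPTPRN3 stood at 15.7% of shNC, and at 22.9% and 9.22% when only libraries numbered 1 or only those numbered 2 were set against each other. On log2(scaled FPKM + 1) the fold change came to -2.57 (SE 0.41), and the p that limma adjusted over all genes, 0.0634, was above the threshold of 0.05. The gene passed in 3 of 12 other unblocked settings, at 0.0270 without the genes listed at 0, at 0.0364 with robust eBayes and at 0.0104 without shPTPRN3 replicate 1, where the log2 fold change was -3.07. In bulk RNA, a smaller share of cells in the phases that express such a gene and less RNA per cell cannot be told apart.

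FOXM1 occupies bases 2857680 to 2877174 of chromosome 12, minus strand, in hg38, and its longest coding transcript in GENCODE 29 has 8 exons. Its 5′ end overlaps RHNO1, a gene of the replication checkpoint on the opposite strand, over 910 bases, and its 3′ end overlaps ITFG2 over 2112 bases. RHNO1 had 8.28 and 3.76 FPKM in shPTPRN3, against 17.2 and 12.8 FPKM in shNC (limma, log2 fold change -1.25, SE 0.38, adjusted p = 0.222). ITFG2 was listed at 0 in all 4 libraries, and values of exactly 0 can be failed estimates. The strand setting of the counting is not given in the sources used here, so reads in the shared stretches cannot be assigned with certainty, and the part of this overlap in the FOXM1 values was not tested.

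MYBL2, the MYB family member that binds MuvB in S phase and recruits FOXM1, had 8.92 and 1.95 FPKM in shPTPRN3, against 29.4 and 19.9 FPKM in shNC. The groups did not overlap, but the shPTPRN3 libraries were 4.10-fold apart after scaling, the widest gap between libraries of a group among the 7 genes. The log2 fold change was -2.22 (SE 0.54; limma, adjusted p = 0.143), and shPTPRN3 stood at 29.9% of shNC between the libraries numbered 1 and at 10.1% between those numbered 2. Without shPTPRN3 replicate 1 the log2 fold change was -3.02 and the adjusted p 0.0104, and without shPTPRN3 replicate 2 it was -1.39 with an adjusted p of 0.448 by limma. MYBL2 occupies bases 43667019 to 43716496 of chromosome 20, plus strand, has 13 exons in its longest coding transcript, and overlaps no other gene of the tables.

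MYBL1, the family member best known from male meiosis in mice, stood at far lower levels. It had 1.13 and 1.02 FPKM in shPTPRN3, against 2.73 and 3.67 FPKM in shNC. The shPTPRN3 values were nearly equal and both below the shNC values, with 33.7% of the scaled control level left and a log2 fold change of -1.0 (SE 0.30; limma, adjusted p = 0.219). The pseudocount of 1 weighs on genes this low: the log2 ratio of the group means without it was -1.57. The founding family member, MYB, was under 0.17 FPKM in every library and was not tested.

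**Figure D1:**
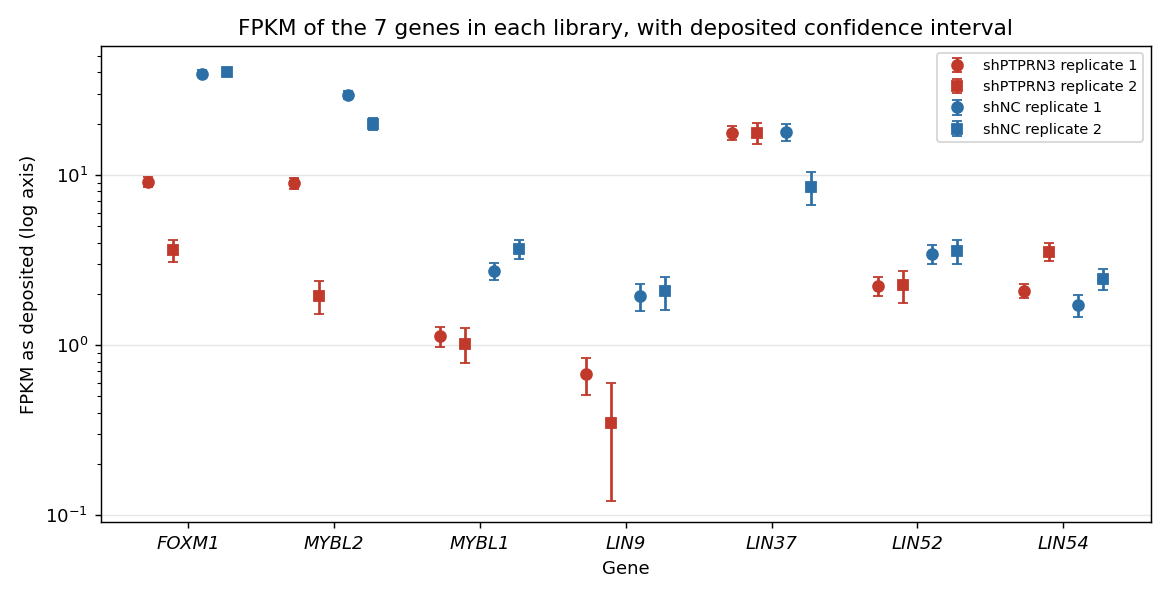
FPKM as deposited (log axis) for each of the 7 genes, with 1 point per library (shPTPRN3 in red, shNC in blue; circles for replicate 1, squares for replicate 2) and the deposited confidence interval as a bar. FOXM1 spans 3.60 to 9.12 FPKM in shPTPRN3 and 39.3 to 40.3 FPKM in shNC, while LIN54 and LIN37 overlap between the groups.

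The MuvB core genes differed among themselves. LIN9, the subunit through which MuvB binds B-MYB together with LIN52, had 0.673 and 0.350 FPKM in shPTPRN3, against 1.95 and 2.07 FPKM in shNC. Both shPTPRN3 values were below both shNC values, with 25.3% of the scaled control level left and a log2 fold change of -1.0 (SE 0.29; limma, adjusted p = 0.204), or -1.98 as a ratio of group means without the pseudocount. Its value in shPTPRN3 replicate 2 corresponded to only about 8.66 fragments, with an interval of 0.122 to 0.599 FPKM, so counting error is large there.

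LIN52, the small subunit that carries the DYRK1A site, had 2.23 and 2.24 FPKM in shPTPRN3, against 3.43 and 3.57 FPKM in shNC. The libraries of each group agreed closely and the groups did not overlap, with a log2 fold change of -0.47 (SE 0.29; limma, adjusted p = 0.524). Library 1 against library 1 and library 2 against library 2 each gave a difference of -0.47.

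LIN54, the DNA-binding subunit, had 2.08 and 3.54 FPKM in shPTPRN3, against 1.71 and 2.46 FPKM in shNC. The groups overlapped, and the log2 fold change was 0.30 (SE 0.36; limma, adjusted p = 0.770), turning to -0.029 without shPTPRN3 replicate 2. In each group the library numbered 2 had the higher value. LIN37, a subunit needed for repression by DREAM, had 17.5 and 17.6 FPKM in shPTPRN3, against 17.9 and 8.49 FPKM in shNC. Of its 4 values 3 were alike and shNC replicate 2 stood apart below them, which set the fold change: 0.49 with all libraries (SE 0.39; limma, adjusted p = 0.641) and 0.03 without shNC replicate 2. The longest coding LIN37 transcript has 1150 bases, against 2776 for LIN52, 3567 for LIN9 and 6127 for LIN54.

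Unlike FOXM1, none of the other 6 genes overlapped a gene of the tables. On the minus strand are LIN9 (chromosome 1, 226231149 to 226309767), LIN54 (chromosome 4, 82924604 to 83012941) and MYBL1 (chromosome 8, 66562175 to 66613218). On the plus strand are LIN37 (chromosome 19, 35748576 to 35754519) and LIN52 (chromosome 14, 74084956 to 74201493).

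Across all genes, limma called 48 of 11394 at an adjusted p under 0.05, or 0.421%, with 9 higher (0.079%) and 39 lower (0.342%) in shPTPRN3; on TPM the split was 10 higher and 20 lower. Of the 7 genes described, 0 were called by limma, and 4 (FOXM1, MYBL2, MYBL1 and LIN9) had an unadjusted p under 0.05 and were lower, against 7.79% of all tested genes that were lower at that p and 5.66% that were higher. For 5 of the 7, LIN52 added, each shPTPRN3 value was under each shNC value, an order found in 23.1% of tested genes, and the opposite order, found in 21.5%, occurred in 0 of the 7; groups without overlap thus made up 44.6% of tested genes. LIN9, at 0.673 and 0.350 FPKM in shPTPRN3, reached the minimum mean of 1 FPKM only through shNC. Its place in the counts of 4 and 5 was thus partly a condition of its being tested. The median log2 fold change was -1.0 over the 7 and -0.01 over all tested genes. FOXM1 ranked at percentile 0.474 of all tested fold changes from the lowest up, MYBL2 at 1.0, MYBL1 at 6.28, LIN9 at 6.33, LIN52 at 20.5, LIN54 at 72.0 and LIN37 at 82.2. An exact permutation test of the log2 values, two-sided, gave p = 0.333 for the 5 genes whose groups did not overlap, the smallest p that 2 against 2 libraries allow, and p = 0.667 for LIN37 and LIN54.

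The order of the levels, which FPKM allow because they are per length, differed between the groups. In shPTPRN3 the order by mean was LIN37 (17.6 ± 0.0425 FPKM, SD, n = 2), FOXM1 (6.36 ± 3.90), MYBL2 (5.43 ± 4.93), LIN54 (2.81 ± 1.03), LIN52 (2.24 ± 0.00861), MYBL1 (1.07 ± 0.0751) and LIN9 (0.512 ± 0.228). In shNC it was FOXM1 (39.8 ± 0.711 FPKM, SD, n = 2), MYBL2 (24.6 ± 6.72), LIN37 (13.2 ± 6.66), LIN52 (3.50 ± 0.0982), MYBL1 (3.20 ± 0.667), LIN54 (2.09 ± 0.528) and LIN9 (2.01 ± 0.0856). Neighbours whose values overlapped were FOXM1 and MYBL2, MYBL2 and LIN54, and LIN54 and LIN52 in shPTPRN3, and LIN52 and MYBL1, and LIN54 and LIN9 in shNC. Among all tested genes, FOXM1 stood at percentiles 54.6 and 31.3 of the level in shPTPRN3, against 85.5 and 89.1 in shNC, and LIN9 at 1.61 and 1.90 in shPTPRN3, against 14.8 and 13.8 in shNC.

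Ratios within a library do not depend on how libraries are scaled. The summed FPKM of MYBL2 and FOXM1 was 0.801 and 0.234 times that of the 4 LIN genes in shPTPRN3, against 2.75 and 3.63 times in shNC. LIN37 made up most of the LIN sum in each library, and RBBP4 is not in it. The difference in the log2 ratio, shPTPRN3 minus shNC, was -2.87 (exact permutation test, two-sided, p = 0.333, n = 2 per group), with -1.78 between the libraries numbered 1 and -3.96 between those numbered 2. Over the geometric mean of the 4 LIN genes, which weighs them equally, the summed FPKM of MYBL2 and FOXM1 was 6.63 and 2.10 times in shPTPRN3, against 18.2 and 17.1 times in shNC, a log2 difference of -2.24 (exact permutation test, two-sided, p = 0.333, n = 2 per group). Relative to LIN54, the differences in log2 ratio were -3.20 for FOXM1, -2.94 for MYBL2, -2.45 for LIN9, -1.96 for MYBL1 and -1.05 for LIN52, each with groups that did not overlap (exact permutation p = 0.333), and 0.11 for LIN37 (exact permutation p = 1). These share LIN54 as denominator, so they are not independent and its own difference enters each. Without the pseudocount, the log2 ratio of group means was 0.46 for LIN54 itself and -0.63 for LIN52. The share of all genes without overlap relative to LIN54 was not computed. FOXM1 relative to MYBL2 was 1.02 and 1.84 in shPTPRN3, against 1.34 and 2.03 in shNC, which overlapped (exact permutation p = 0.667).

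**Figure D2:**
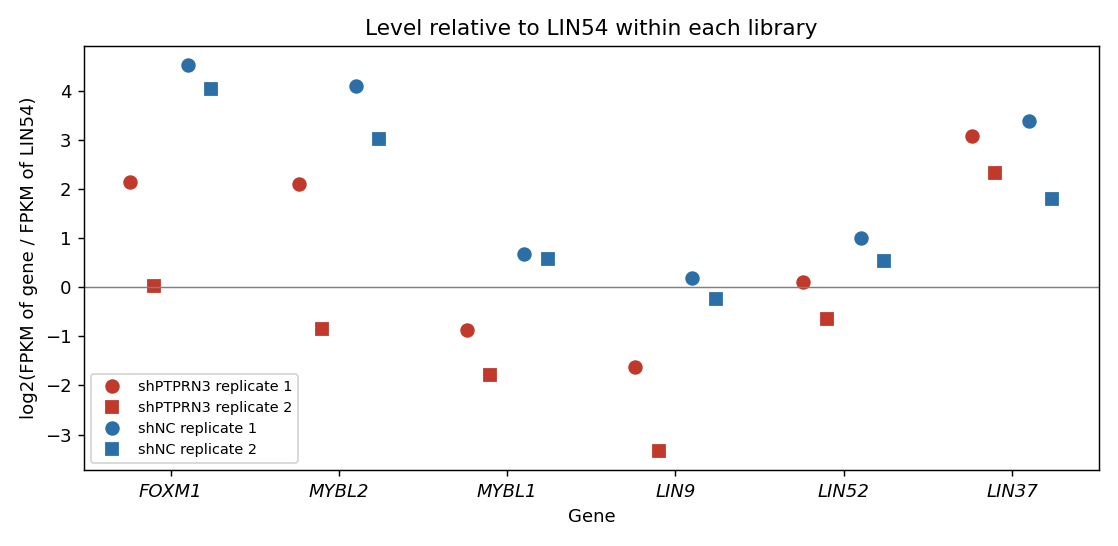
Log2 of each gene's FPKM over that of LIN54 in the same library, for shPTPRN3 (red) and shNC (blue), circles for replicate 1 and squares for replicate 2. For FOXM1 the ratios are 2.13 and 0.02 in shPTPRN3 and 4.52 and 4.04 in shNC, and for LIN37 the groups overlap.

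The partners of MuvB in DREAM were mixed. Of the 8 genes of that list (with RBBP4, the remaining MuvB core subunit, and RB1), 0 were called by limma, 3 had an unadjusted p under 0.05 and were lower (7.79% of all tested genes), 4 had both shPTPRN3 values under both shNC values (23.1% of all), and the median log2 fold change was -0.56. RBBP4, a histone-binding chaperone, had 3.62 and 2.85 scaled FPKM in shPTPRN3, against 15.0 and 17.1 in shNC (-2.01, SE 0.31; limma, adjusted p = 0.0595). TFDP1, the dimerisation partner of E2F proteins, had 12.0 and 4.91 in shPTPRN3, against 51.8 and 43.4 in shNC (-2.47, SE 0.44; limma, adjusted p = 0.0735). RBL1, which encodes p107, had 1.82 and 2.16 in shPTPRN3, against 4.25 and 7.55 in shNC (-1.17; limma, adjusted p = 0.213). In these 3 genes and in E2F5 (-0.60) the groups did not overlap, as in 44.6% of all tested genes.

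The other partners had smaller differences. E2F4, the E2F of DREAM, had 68.4 and 63.3 scaled FPKM in shPTPRN3, against 76.2 and 54.3 in shNC, a log2 fold change of 0.03. RBL2, which encodes p130, had 9.55 and 8.75 in shPTPRN3, against 8.77 and 16.8 in shNC. RB1 (0.53), TFDP2 (-0.53) and RBL2 (-0.38) overlapped between groups, as did E2F4.

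Among 12 genes that regulate these complexes, 11 were tested, 0 were called by limma, 3 were lower and 2 higher at an unadjusted p under 0.05, against 7.79% and 5.66% of all tested genes. CDKN1A, which encodes the cyclin-dependent kinase inhibitor p21 and favours the DREAM state, had 609 and 918 scaled FPKM in shPTPRN3, against 142 and 89.2 in shNC (2.72, SE 0.49; limma, adjusted p = 0.0762). MELK, a kinase that phosphorylates FOXM1, had 4.16 and 2.17 in shPTPRN3, against 18.7 and 20.6 in shNC (-2.35, SE 0.35; limma, adjusted p = 0.0576). These had the largest differences of the list, in opposite directions and with no overlap between groups.

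CDK2 (-1.07), whose product phosphorylates B-MYB and FOXM1 with cyclin A, and CCNF (-0.66), whose product binds B-MYB, were lower in both shPTPRN3 libraries than in both shNC libraries, and the cyclin D1 gene CCND1 (0.88) was higher in both, with adjusted p from 0.222 to 0.421 by limma. DYRK1A, the kinase for LIN52, had 8.34 and 11.3 scaled FPKM in shPTPRN3, against 6.76 and 10.7 in shNC, a log2 fold change of 0.17. CDK4 (-0.42), CDK6 (0.56) and FZR1 (0.24), an activator of the complex that degrades FOXM1 in late mitosis and G1, overlapped between groups, as did the forkhead genes FOXO1 (-0.14) and FOXO3 (0.50). CDKN2A was listed at 0 in both shPTPRN3 libraries, against 0.0376 and 0.0579 FPKM in shNC, and was not tested.

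**Figure D3:**
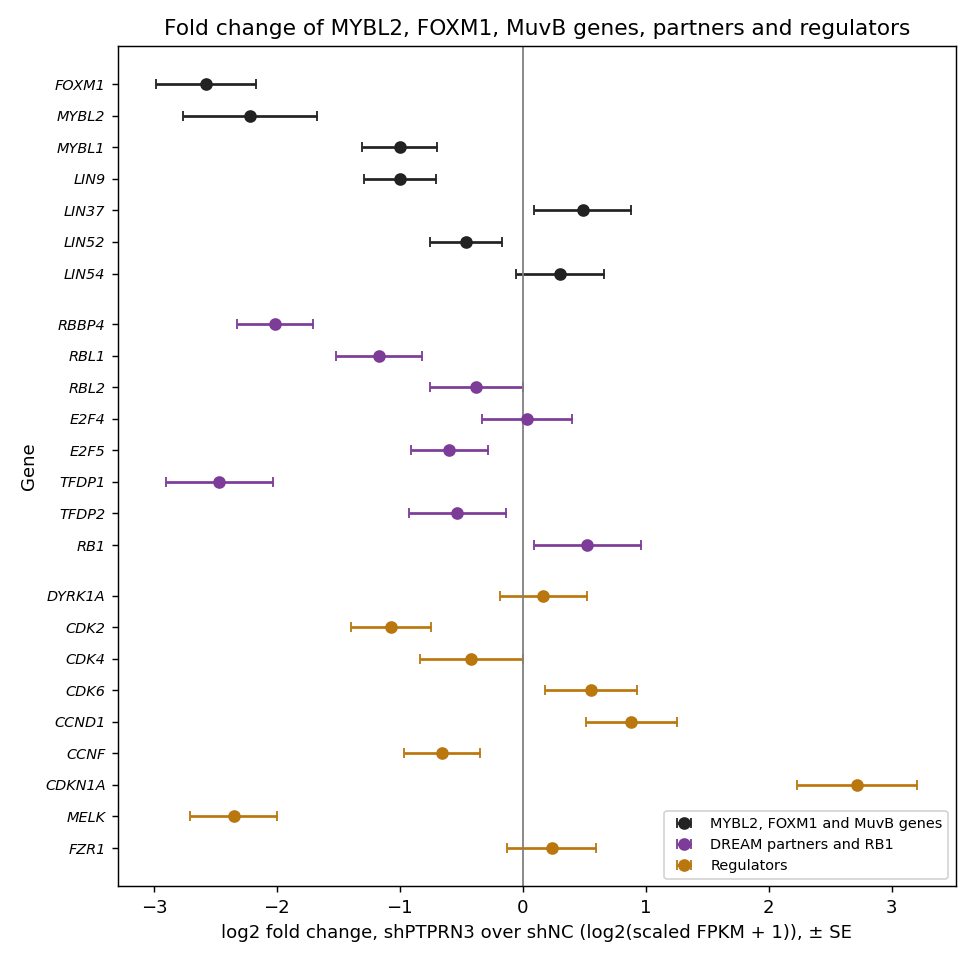
Log2 fold change of shPTPRN3 over shNC on log2(scaled FPKM + 1), with its SE, for the 7 genes (black), the DREAM partners with RB1 (purple) and regulators that were tested (ochre). FOXM1, TFDP1, MELK, MYBL2 and RBBP4 lie at -2.01 or below and CDKN1A at 2.72, while E2F4, DYRK1A and LIN54 lie between 0.03 and 0.30.

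The genes that B-MYB, MuvB and FOXM1 drive late in the cycle were lower throughout. Of 42 such targets, 41 were tested, 4 fell by limma's adjusted p and none rose, against 0.342% of all tested genes that fell, and 40 were lower at an unadjusted p under 0.05, against 7.79% of all. All 41 had both shPTPRN3 values below both shNC values, against 23.1% of all, and the median log2 fold change was -2.40, with -1.99 between the libraries numbered 1 and -2.95 between those numbered 2. Some reached the minimum mean of 1 FPKM only through shNC, such as KIF14 and CENPE (means of 0.399 and 0.431 scaled FPKM in shPTPRN3). The called KIF20A and PIMREG (means of 0.518 and 0 scaled FPKM in shPTPRN3) were also among them. For such genes a lower value was partly a condition of being tested. The list was also chosen with earlier results of these data known, so its counts describe the list and are no independent test. CDK1, the kinase that starts mitosis, fell to 2.21 and 0.411 scaled FPKM in shPTPRN3, against 30.3 and 20.1 in shNC (-3.59, SE 0.46; limma, adjusted p = 0.0361). TPX2, a spindle assembly factor, fell to 6.46 and 3.94 in shPTPRN3, against 34.7 and 38.5 in shNC (-2.63, SE 0.34; limma, adjusted p = 0.0381).

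The other called targets contain values of exactly 0, which can be failed estimates. KIF20A, a kinesin of cytokinesis, had 1.04 scaled FPKM and a value listed at 0 in shPTPRN3, against 13.2 and 11.0 in shNC, and PIMREG was listed at 0 in both shPTPRN3 libraries, against 18.5 and 11.9 in shNC. CDC25C was listed at 0 in all 4 libraries and could not be tested. When genes with a value of 0 were left out, FOXM1 was the only one of the 7 called, beside 33 of 39 late targets, all lower, and 1.97% of all 11127 genes (1.59% lower). With 1 library left out, the median log2 fold change of the late targets ran from -2.83, without shPTPRN3 replicate 1, to -1.88, without shPTPRN3 replicate 2.

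Among late targets never listed at 0, the largest differences after that of CDK1 were those of PLK1 (-3.39), UBE2C (-3.37), CDC20 (-3.31), AURKB (-3.14) and PRC1 (-2.92), which encode a mitotic kinase, a ubiquitin-conjugating enzyme and an activator of the anaphase-promoting complex, the Aurora B kinase and a midzone protein. PLK1 had 9.52 and 2.0 scaled FPKM in shPTPRN3, against 69.1 and 48.0 in shNC. Those with the smallest were ECT2 (-0.85), CENPE (-1.20), CDC25B (-1.27) and KIF14 (-1.56). ECT2, an exchange factor of cytokinesis, had 3.90 and 7.01 in shPTPRN3, against 7.65 and 13.8 in shNC.

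The targets of G1/S, which E2F factors activate and DREAM also binds, were lower too. Of 42 such genes, 41 were tested, 1 fell by limma's adjusted p (0.342% of all tested genes) and 34 were lower at an unadjusted p under 0.05 (7.79% of all), with a median log2 fold change of -1.48. In all 41 both shPTPRN3 values were under both shNC values, against 23.1% of all. As in the late list, genes low in shPTPRN3 could reach the minimum mean of 1 FPKM through shNC. This list too was chosen with earlier results known, so its counts are no independent test. UHRF1, a factor of maintenance DNA methylation, fell to 2.74 and 1.16 scaled FPKM in shPTPRN3, against 21.9 and 18.5 in shNC (-2.90, SE 0.37, limma adjusted p = 0.0361). That call did not hold on FPKM as deposited or on TPM, where 0 of the list were called by limma. With 1 library left out, the median of the list ran from -1.62, without shPTPRN3 replicate 1, to -1.37, without shPTPRN3 replicate 2. TK1 (-3.31), RRM2 (-3.10), CDT1 (-2.68), MCM7 (-2.68) and CDC45 (-2.46) were, with UHRF1, the genes of the list with the largest differences that were never listed at 0, while RRM1 (-0.26), UNG (-0.38) and MSH6 (-0.52) were among those with the smallest. The difference between the lists of late and G1/S targets was not tested.

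**Figure D4:**
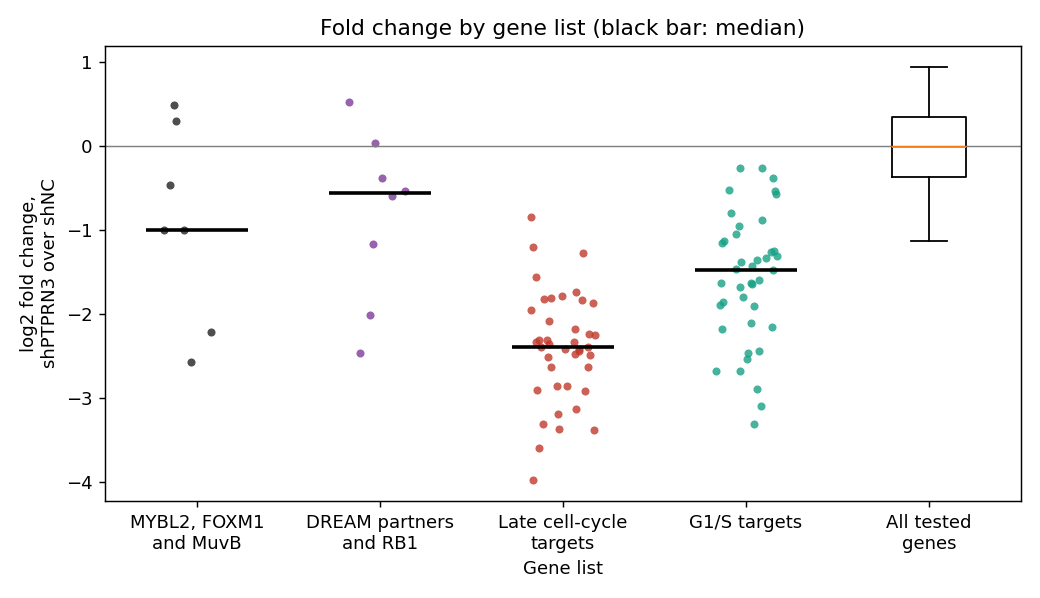
Log2 fold change of shPTPRN3 over shNC for the 7 genes, the 8 DREAM partners with RB1, the 41 tested late targets and the 41 tested G1/S targets, 1 point per gene, with the median as a black bar. The box gives the quartiles of all 11394 tested genes with whiskers from percentile 5 to 95; the list medians are -1.0, -0.56, -2.40 and -1.48.

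The lists also differed in promoter letters. A CHR was found in 25 of the 35 late target windows that matched the RefSeq table (71.4%) and in 2 of 34 G1/S windows (5.88%), against 16.4% of all 35116 windows and 11.1% of the 8963 windows of tested genes. The E2F motif was found in 1 late window (2.86%) and 18 G1/S windows (52.9%), against 2.27% of all windows and 4.0% of those of tested genes. The CCAAT box was found in 74.3% of late and 64.7% of G1/S windows, against 34.6% of all windows and 36.95% of those of tested genes. The lists were drawn up from textbook knowledge of these promoters, so the shares describe the lists. Within the late list the median log2 fold change was -2.36 over the 25 tested genes with a CHR in the window and -2.42 over the 9 without, and within the G1/S list it was -1.53 over the 18 with an E2F motif and -1.54 over the 16 without. A CHR between 50 bases before and 50 after the start was found in 19 of the 35 late windows (54.3%) and in 0 of the 34 G1/S windows, against 5.01% of all windows and 3.25% of those of tested genes.

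**Figure D5:**
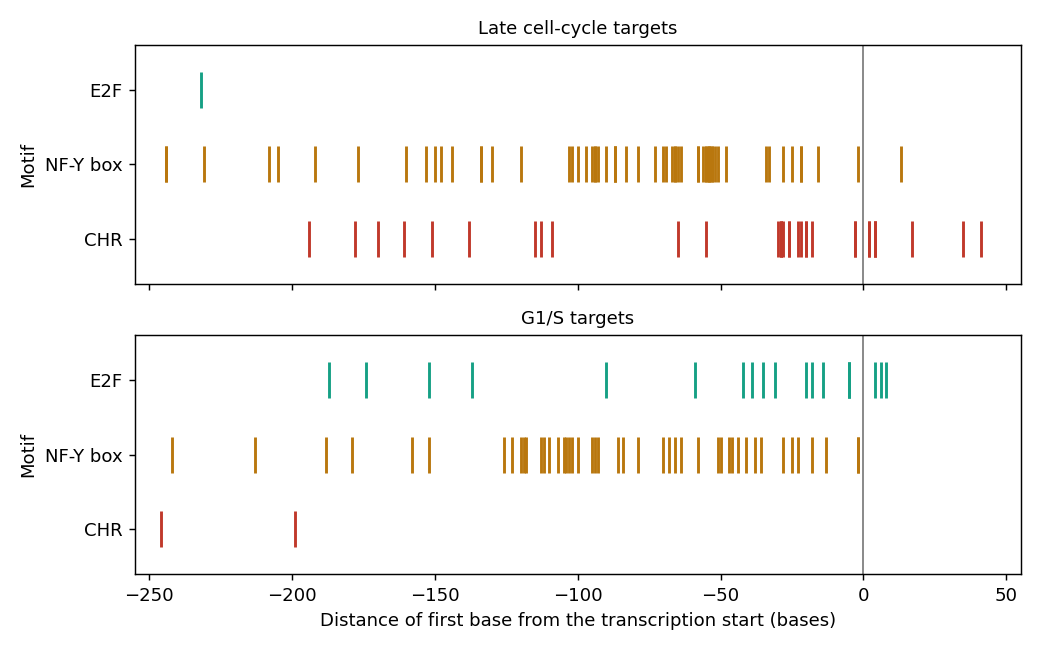
Distance in bases of each motif's first base from the transcription start, in windows of the late targets (top) and the G1/S targets (bottom); each tick is a match on either strand, and the NF-Y box is the CCAAT box. Ticks of the CHR crowd around the start in the late targets, where 19 of 35 windows have one within 50 bases, and number 2 in the G1/S targets.

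By the shape of their levels over the 4 libraries, the genes nearest to FOXM1 among 11126 never listed at 0 were NEK2, TRIP13, HMMR, NDC80 and SHCBP1, at Euclidean distances of centred log2 values from 0.171 to 0.240. Of these, NEK2, HMMR and NDC80 are on the late list and encode a centrosome kinase, a spindle protein and a kinetochore subunit. NEK2 had 1.71 and 0.261 scaled FPKM in shPTPRN3, against 8.65 and 9.15 in shNC. Nearest to MYBL2 were MND1, KIF18B, GATD3A, RNASEH2A and HMGB2, at distances from 0.289 to 0.361, none of them on the late or the G1/S list; GATD3A has a near-identical copy, so its value is uncertain. HMGB2, a chromatin protein, had 11.4 and 3.67 scaled FPKM in shPTPRN3, against 45.5 and 23.8 in shNC. MYBL2 came at rank 64 from FOXM1 and FOXM1 at rank 58 from MYBL2, at a distance of 0.699. The 4 libraries form 2 groups, so genes with a like difference between the groups are near each other by construction.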

How the data were processed

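The members, lists and alternatives were chosen with earlier results of these data known. Per the labels' protocols, the kit for mRNA was a stranded one. The submitters' processing notes name FastQC (0.72), Cufflinks (2.2.1.2), STAR (2.6.0b-1) and hg38; for annotation and strand setting, nothing is given in the sources used here. Per the file headers, each gene row holds the deposited FPKM, a confidence interval and a status. Assumed transcript lengths, and the split of fragments between overlapping genes, enter them.

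Rows (33646) were joined on name and position, 651 whose status was not OK throughout were left out, and FPKM were summed per symbol. Scaled FPKM are FPKM divided by each library's median-ratio factor (1.05 and 0.943 for shPTPRN3 replicates 1 and 2, 1.04 and 0.974 for shNC) over 9988 genes that reached 1 FPKM everywhere. On log2(scaled FPKM + 1), limma (3.58.1; R 4.3.3) tested PTPRN and the genes whose mean was 1 FPKM or above, with eBayes and a trend, two-sided, Benjamini-Hochberg adjusted, threshold 0.05; there were 2 residual degrees of freedom, to which the prior added 4.94. Fold changes are on that scale, which understates those of low genes. Fragment numbers take the interval as 2 SD of counting error on each side; depth was their median over single-exon genes of at least 1000 bases. Intervals cover counting and assignment error only. Code was tested on simulated data.

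Named genes were the 7 members, PTPRN, the partner and regulator lists, MYB, FOXO1 and FOXO3, and of the late and G1/S lists the 6 largest and 4 smallest absolute fold changes among genes never listed at 0, plus those called. RHNO1, ITFG2, CDC25C and the markers were added, and a few genes under this rule are not reported here by name, though list counts and medians include them. Sequences are from RefSeq (GRCh38.p14); transcript structures are from GENCODE 29. Python 3.11.15, pandas 2.3.3, scipy 1.17.1 and matplotlib 3.10.9 were used. Alternatives covered scaling, pseudocount, filters, eBayes, the replicate block and each library left out.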

Additional observations from a re-analysis of the deposited data

How the results depend on the processing

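By limma, the number of genes called, 48 of 11394, was 30 on TPM, 31 on FPKM as deposited, 26 with eBayes without a trend, 23 with a pseudocount of 0.1, 8 under a minimum mean of 5 FPKM and 0 without a filter (2317 had an unadjusted p under 0.05). It was 160 with robust eBayes and 219 without genes listed at 0, and ran from 58 to 199 with 1 library left out. Of the 7 genes described, 0 were called by limma (4 at an unadjusted p under 0.05), against 1 with robust eBayes, 1 without genes listed at 0 and 0 to 2 with 1 library left out. Of the late targets 4 were called, against 1 on FPKM as deposited, on TPM, with eBayes without a trend and with a pseudocount of 0.1, 0 under a minimum mean of 5 FPKM or without a filter, 27 with robust eBayes, 33 without genes listed at 0 and 1 to 28 with 1 library left out. Of the G1/S targets 1 was called, against 0 in the first 6 settings named, 12 with robust eBayes, 22 without genes listed at 0 and 0 to 13 with 1 library left out. Each of the 41 tested genes of either list had both shPTPRN3 values under both shNC values, which fixes the sign with 1 library left out. The medians of both lists stayed negative in every setting run. So did the fold changes of FOXM1, MYBL2, MYBL1, LIN9 and LIN52 in the settings that tested them (MYBL1, LIN9 and LIN52 missed the minimum mean of 5 FPKM, and LIN9 the filter without shNC replicate 2), which for 2 against 1 library is fixed where groups do not overlap. The fold change of LIN54 ran from -0.029, without shPTPRN3 replicate 2, to 0.633, without shPTPRN3 replicate 1. The cause of these differences was not tested.

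The labels number the libraries 1 and 2 in each group without saying that a number marks a shared culture or day. Deviations of same-numbered libraries from their group means correlated with r = 0.519 across 11394 genes. With the replicate number as a block, a fit with fewer residual degrees of freedom, limma called 2168 of 11394 genes, 1212 lower and 956 higher. Among them were 41 late and 35 G1/S targets and 4 of the 7 genes: FOXM1 (limma, adjusted p = 5.69e-07), MYBL2 (3.96e-06), MYBL1 (0.0165) and LIN9 (0.0276). In that fit the SEs of the 7 genes ran only from 0.268 (LIN52) to 0.313 (LIN9). Its p-values therefore rest mostly on spread shared across genes, not on that of each gene. With 2 libraries per group, depth limits LIN9 most, and no design of 2 against 2 can bring an exact permutation p under 0.333.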
